A study of Mus musculus with 8 samples.

Results

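The genes described here make, store and take up fat in the liver: 34 genes of fatty acid synthesis, triglyceride synthesis, lipid droplets and fatty acid uptake, chosen by name from 19055 gene symbols. All 34 were in the table, and 33 were measured, meaning that they reached 10 in 3 or more of the 8 libraries, as 13704 genes did. Mogat1, a monoacylglycerol acyltransferase, did not pass and reached at most 6.77. Elovl3, which passed with the lowest values, exceeded 10 in 4 libraries and reached 63.6. Values are normalized values, that is, 3′ end reads of a gene divided by a size factor of the library, and they are compared between libraries and not between genes.

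Livers were taken 48 hours after partial hepatectomy from mice aged 8 to 9 weeks. The 3 control livers have the genotype URI(+/+)Hep and came from wild-type littermates, and the 5 others have the genotype URI(+/D)Hep, in which URI, encoded by Uri1, is deleted in hepatocytes with serum albumin-creERT2. All 8 are described as coming from mice given tamoxifen for 1 week, and all were operated on under the analgesic Buprex and isoflurane. The deletion is thus limited to cells in which the albumin-driven Cre acts, and the notation +/D keeps a wild-type allele beside the D allele. The labels name the tissue liver and the cell type epithelial, and RNA was total RNA. The sources used here do not give whether the controls carried the Cre, or whether a library came from 1 mouse or from several.

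Hepatocytes build fatty acids from citrate: ATP citrate lyase frees acetyl-CoA, acetyl-CoA carboxylase makes malonyl-CoA, and fatty acid synthase joins these units into palmitate, which desaturases and elongases then modify. Acyltransferases and lipins turn fatty acids into triglyceride, which is kept in droplets coated by perilipins, enlarged by CIDE proteins and emptied by lipases. After partial hepatectomy the remaining hepatocytes are known to fill with lipid droplets for a time before and while they divide. The transcription factors SREBP1 (Srebf1) and ChREBP (Mlxipl) drive the synthesis genes, and PPAR receptors drive many droplet genes.

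Several libraries stood apart before any lipid gene was considered. Recovered depth ranged from 3838674 to 4800694 reads. Uri1 stood at 468, 374 and 310.0 in controls 1, 2 and 3 and 328, 398, 437, 354 and 401 in URI(+/D)Hep 1 to 5, and the groups overlapped (log2 fold change 0.011, 95% interval -0.33 to 0.35, two-sided exact permutation p = 1.00, the smallest possible being 0.0357). The sources used here do not give the deleted part of the gene, so 3′ reads need not show it, and the groups are called by their labels. The proliferation marker Mki67 stood at 23.99, 282 and 468 in controls 1, 2 and 3 and 469, 333, 268, 586 and 49.5 in URI(+/D)Hep 1 to 5, lowest in control 1 and in URI(+/D)Hep 5. Xist was near 0 in controls 1 and 2 only, at 9.59 and 2.95, while Y-linked reads were near 0 in URI(+/D)Hep 1 only, so control 3 and URI(+/D)Hep 2 to 5 held both. Sex composition therefore differed between the groups. Of 7 hepatocyte markers, among them Alb and Hnf4a, all were measured, and their summed values were 24286 to 28609 in controls and 24973 to 26706 in URI(+/D)Hep. Among them Cps1, a urea cycle enzyme, separated the groups, at 1077, 1802 and 1879.6 in controls 1, 2 and 3 and 2709, 3682, 3483, 2799.9 and 3198 in URI(+/D)Hep 1 to 5 (log2 fold change 1.03, SE 0.20, limma adjusted p = 0.108).

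Between the genotypes, 0 of the 33 measured genes were called higher and 0 lower at an adjusted p under 0.05 by limma, beside 0.0% and 0.0146% of all genes. At an unadjusted p under 0.05, Scd1 was higher and Cd36 and Agpat2 were lower, beside 8.35% and 9.33% of all genes. The median log2 fold change was -0.025 over the 33 genes and -0.0019 over all genes tested, with 14 genes positive and 19 negative. Scd1 and Cd36, 2 of 33 genes, had groups whose ranges lay apart, beside 13.4% of all genes. Leaving out control 3, 6 of 33 did (beside 25% of all genes), and in the 5 libraries where Xist and Y-linked reads occur together, control 3 and URI(+/D)Hep 2 to 5, 9 did (beside 54.5%). These 5 libraries leave out controls 1 and 2 and URI(+/D)Hep 1 at once. By edgeR on recovered reads 0 of the 33 genes were called, beside 0.0% of all genes higher and 0.0219% (3 genes) lower. DESeq2 called 1 lower, Cd36, and 0 higher, beside 4.1% and 2.57% of the genes it adjusted, and gave no adjusted p to Elovl3, Cidea and Fitm1. The labels do not say that each sample is a separate mouse, so all p-values measure the spread between these samples.

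**Figure D1:**
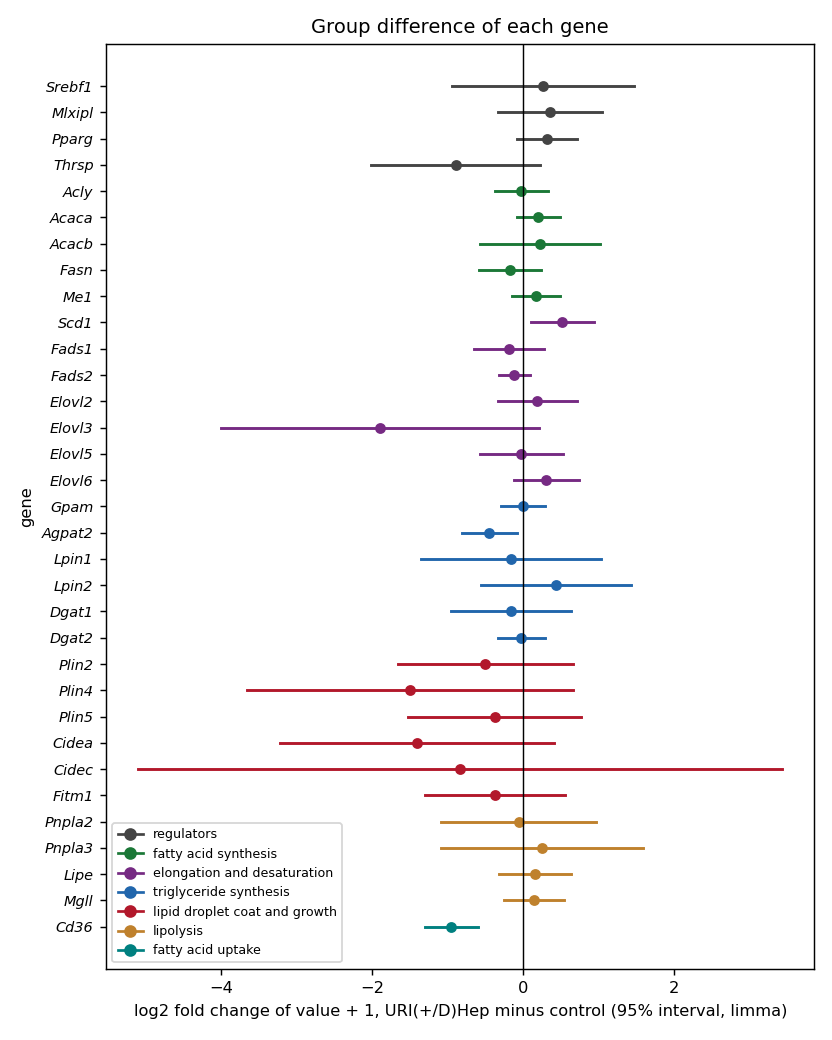
Log2 fold change of the value + 1 between the genotypes (x axis, URI(+/D)Hep minus control) for 33 genes grouped by role (y axis); points are limma estimates and lines 95% intervals over 3 control and 5 URI(+/D)Hep libraries. The intervals of Scd1, Agpat2 and Cd36 leave out 0 before adjustment, and those of Cidec, Plin4, Elovl3 and Cidea are the widest.

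Cd36, which encodes a fatty acid translocase at the cell surface, had the smallest p of the 33 genes between the genotypes. It stood at 380.2, 510.0 and 456 in controls 1, 2 and 3 and 216, 200, 283, 264 and 202 in URI(+/D)Hep 1 to 5. Every URI(+/D)Hep library lay below every control, and the highest of them, replicate 3, was at 283 against 380.2 in control 1, the lowest control. The means were 449 ± 65.2 against 233 ± 38.3 (SD, n = 3 and n = 5), about 1.93-fold apart. The log2 fold change was -0.95 (SE 0.16, 95% interval -1.30 to -0.59, limma adjusted p = 0.108), so it did not pass, although its unadjusted p ranked 17 of 13704 genes. The two-sided exact permutation p was 0.0357, the smallest that 56 splits allow.

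DESeq2 on recovered reads called Cd36 lower with an adjusted p of 0.000122, edgeR gave an adjusted p of 0.106, and over 25 alternatives the log2 fold change stayed between -1.10 and -0.85. With Mki67 as a covariate the limma adjusted p was 0.0492, and that fit called 0.467% of all genes higher and 0.766% lower. In control 3 against URI(+/D)Hep 2 to 5 the log2 fold change was -0.96 (limma adjusted p = 0.364), with that lone control assumed to vary like the other group. Liver endothelial cells and macrophages also express Cd36. In whole tissue, fewer cells of a type and less RNA per cell cannot be told apart. Of 8 sinusoidal endothelial markers all were measured, and their sum was higher in URI(+/D)Hep, 2259.9 to 2480.3 against 1685 to 2125. Among them Stab2, at 946 to 1041 against 672 to 866, and Tek, at 141 to 181 against 87.5 to 105, separated the groups. The other endothelial markers overlapped. The sum of 8 macrophage markers, all measured, overlapped, at 5715 to 6990.1 against 5584 to 7128. Each marker also overlapped, but they did not move together. Control 1 was the lowest library for Cd5l, at 1200, and the highest for Marco, at 3326. Clec4f stood at 203 to 384 against 102 to 245, and C1qa at 735 to 901 against 866 to 1007. The part of endothelial cells and macrophages in the Cd36 values was not tested.

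The 250 bases before the Cd36 start (RefSeq, GRCm38.p6, chr5:17835897-17836146, minus strand) are shown because Cd36 is the gene with the clearest group difference. Capitals mark the CCAAT box, letters bound by the factor NF-Y, on either strand. The deposited values were made on GRCm39, so these coordinates belong to the sequence only.
Cd36: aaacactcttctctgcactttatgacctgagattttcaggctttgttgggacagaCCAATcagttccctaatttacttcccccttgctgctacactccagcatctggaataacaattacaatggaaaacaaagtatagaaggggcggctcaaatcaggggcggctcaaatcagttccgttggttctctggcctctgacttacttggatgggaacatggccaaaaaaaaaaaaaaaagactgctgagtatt

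Scd1, the main hepatic stearoyl-CoA desaturase, which makes oleate, was the other gene whose groups did not overlap. It stood at 1607, 1847 and 1647 in controls 1, 2 and 3 and 1985, 2042, 2466, 2382 and 3572 in URI(+/D)Hep 1 to 5. The lowest URI(+/D)Hep library, replicate 1, was just above the highest control, replicate 2, and replicate 5 was far above all others. Means were 1700.3 ± 129 against 2489 ± 640.2 (log2 fold change 0.52, SE 0.19, limma adjusted p = 0.203), and the two-sided exact permutation p was 0.0357. Without URI(+/D)Hep 5 the log2 fold change was 0.38. Reads of Scd1 could be shared with related desaturase genes, and the sources used here do not give how such reads were counted.

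**Figure D2:**
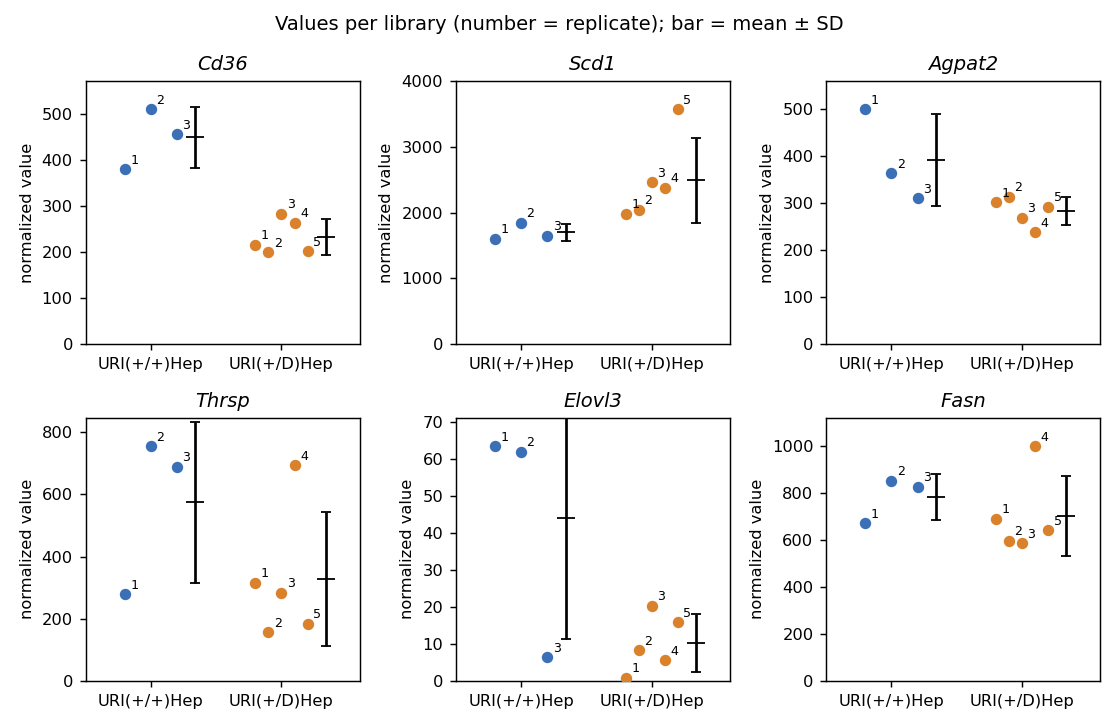
Normalized value (y axis) of 6 genes in each library (points, numbered by replicate) for the 3 URI(+/+)Hep and 5 URI(+/D)Hep livers (x axis); bars show the mean ± SD. Cd36 and Scd1 separate the groups, Agpat2 overlaps through control 3, Thrsp and Fasn overlap with URI(+/D)Hep 4 the highest of its group, and Elovl3 is high in controls 1 and 2 only.

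The other desaturases and elongases overlapped between the groups. Fads2, the delta-6 desaturase of polyunsaturated fatty acids, varied least of the 33 genes, 1.20-fold between libraries, at 1989.6, 2016 and 2098 in controls 1, 2 and 3 and 1783, 2021, 1997, 1843 and 1747 in URI(+/D)Hep 1 to 5. Its log2 fold change was -0.12 (95% interval -0.32 to 0.089). Elovl6, which lengthens palmitate, stood at 481, 713 and 743 in controls 1, 2 and 3 and 723, 676, 675, 1003 and 905 in URI(+/D)Hep 1 to 5 (log2 fold change 0.31, SE 0.19, limma adjusted p = 0.425). Control 1 was the lowest and URI(+/D)Hep 4 the highest library for Elovl6, and without control 1 the log2 fold change was 0.11. Fads1, Elovl2 and Elovl5, which act on polyunsaturated fatty acids, had log2 fold changes of -0.18, 0.19 and -0.025.

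Elovl3, an elongase of very long chain fatty acids that is known to be higher in male mouse liver, stood at 63.6, 62.03 and 6.44 in controls 1, 2 and 3 and 0.884, 8.33, 20.3, 5.62 and 15.8 in URI(+/D)Hep 1 to 5. It was high only in controls 1 and 2, the libraries with almost no Xist, and control 3 lay inside the range of the URI(+/D)Hep livers. The value in URI(+/D)Hep 1, the library with almost no Y-linked reads, is a single read. The log2 fold change of -1.89 did not pass (SE 0.93, limma adjusted p = 0.325). It was -2.93 without control 3, and 0.71 in control 3 against URI(+/D)Hep 2 to 5, which also leaves out URI(+/D)Hep 1, the lowest library.

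No fatty acid synthesis enzyme was called, and all 5 overlapped between the groups. Fasn, fatty acid synthase, stood at 670.4, 852 and 826 in controls 1, 2 and 3 and 689, 597, 587, 999 and 639.9 in URI(+/D)Hep 1 to 5. The groups overlapped, with URI(+/D)Hep 4 the highest of all 8 libraries and the other 4 of that group at or below 689. The means were 783 ± 98.1 against 703 ± 171 and the log2 fold change was -0.18 (95% interval -0.59 to 0.23, limma adjusted p = 0.649). Acly, ATP citrate lyase, stood at 524, 436 and 382 in controls 1, 2 and 3 and 438, 447, 417, 549 and 355 in URI(+/D)Hep 1 to 5. Its log2 fold change was -0.023 (95% interval -0.37 to 0.33), with overlapping groups.

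Acaca, which encodes acetyl-CoA carboxylase 1, stood at 1147, 1084 and 951 in controls 1, 2 and 3 and 1171, 1194, 1079, 1497 and 1189 in URI(+/D)Hep 1 to 5. URI(+/D)Hep 4 was again the highest and control 3 the lowest library (log2 fold change 0.20, SE 0.12, limma adjusted p = 0.418). Me1, malic enzyme, a source of NADPH, stood at 975, 719.8 and 733 in controls 1, 2 and 3 and 947, 979.6, 744, 983 and 880.2 in URI(+/D)Hep 1 to 5 and overlapped (log2 fold change 0.17, 95% interval -0.14 to 0.49). Acacb, whose malonyl-CoA restrains fatty acid oxidation at mitochondria, ranged from 99.5 in control 1 to 269 in URI(+/D)Hep 3 (log2 fold change 0.23). None of these 5 enzymes reached an unadjusted p under 0.05 by limma.

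The Fasn upstream region (RefSeq, GRCm38.p6, chr11:120824548-120824797, minus strand) is shown as the textbook SREBP1 and NF-Y target. It held 3 CCAAT boxes, in capitals, of which the later pair overlap.
Fasn: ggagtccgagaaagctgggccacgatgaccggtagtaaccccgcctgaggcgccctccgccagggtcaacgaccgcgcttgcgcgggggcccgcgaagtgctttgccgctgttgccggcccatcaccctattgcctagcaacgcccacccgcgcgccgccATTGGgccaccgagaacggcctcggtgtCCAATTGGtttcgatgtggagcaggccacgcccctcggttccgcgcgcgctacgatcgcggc

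Among the regulators 0 of 4 were called, and the groups overlapped for each. Srebf1 stood at 68.4, 111 and 141 in controls 1, 2 and 3 and 251, 151, 57.03, 221 and 58.4 in URI(+/D)Hep 1 to 5. It was high in URI(+/D)Hep 1 and 4 and low in 3 and 5 of the same group (log2 fold change 0.26, 95% interval -0.95 to 1.47). Mlxipl stood at 564, 952 and 1474 in controls 1, 2 and 3 and 1606, 975, 1002, 1537 and 982 in URI(+/D)Hep 1 to 5 (log2 fold change 0.36, SE 0.31, limma adjusted p = 0.573). Pparg, a lipid-storage receptor of low level in normal liver, stood at 113, 164 and 169.5 in controls 1, 2 and 3 and 200, 153, 162, 200 and 209 in URI(+/D)Hep 1 to 5. Control 1 was lowest for Mlxipl and Pparg, and both groups overlapped (log2 fold change 0.32, SE 0.18, limma adjusted p = 0.371 for Pparg). Thrsp, or Spot 14, a lipogenic protein induced by thyroid hormone and carbohydrate, stood at 278, 756 and 689.8 in controls 1, 2 and 3 and 316, 157, 283, 694 and 184 in URI(+/D)Hep 1 to 5. Controls 2 and 3 and URI(+/D)Hep 4 were high and the other 5 libraries low (log2 fold change -0.89, SE 0.49, limma adjusted p = 0.377). Without control 1 the log2 fold changes were 0.0044 for Mlxipl, -0.024 for Srebf1, 0.13 for Pparg and -1.35 for Thrsp. In control 3 against URI(+/D)Hep 2 to 5 those of Srebf1 and Mlxipl were -0.45 and -0.42, a comparison without URI(+/D)Hep 1, the highest library for both.

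In triglyceride synthesis, Agpat2, which makes phosphatidic acid, had the smallest p. It stood at 499, 363 and 310.0 in controls 1, 2 and 3 and 301, 313, 269, 238 and 292 in URI(+/D)Hep 1 to 5. Control 1 was highest, and control 3 lay within the URI(+/D)Hep range (log2 fold change -0.44, SE 0.16, limma adjusted p = 0.214). The log2 fold change was -0.25 without control 1. Gpam, the mitochondrial acyltransferase that starts the pathway, and Dgat2, a diacylglycerol acyltransferase of the last step, had log2 fold changes of 0.0011 (95% interval -0.29 to 0.30) and -0.022 (95% interval -0.34 to 0.29). Dgat2 stood at 507, 599 and 658 in controls 1, 2 and 3 and 608, 571, 524, 703 and 495 in URI(+/D)Hep 1 to 5.

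The lipins, phosphatidate phosphatases that also act as transcriptional coactivators, varied more than Gpam and Dgat2. Lpin2 stood at 1665, 1436 and 1023 in controls 1, 2 and 3 and 875, 2651, 3151, 1044 and 2615 in URI(+/D)Hep 1 to 5 (log2 fold change 0.43, SE 0.44, limma adjusted p = 0.646). URI(+/D)Hep 2, 3 and 5 were high and 1 and 4 low, and the groups overlapped. Lpin1 stood at 1021, 784 and 308 in controls 1, 2 and 3 and 221, 675, 807, 452 and 1028 in URI(+/D)Hep 1 to 5. Control 3 and URI(+/D)Hep 1 and 4 were the lowest libraries for both lipins. Dgat1, the other diacylglycerol acyltransferase, ranged from 187 in URI(+/D)Hep 1 to 598 in URI(+/D)Hep 5.

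The lipid droplet genes varied widely between libraries of the same genotype, and none was called between the genotypes. Of the 33 genes, 10 varied at least 4-fold between the lowest and the highest library, beside 14.0% of all genes, and 5 of these 10 were among the 6 droplet coat and growth genes. All 6 had a negative log2 fold change, from -1.50 to -0.37, and 0 reached an unadjusted p under 0.05 by limma. The median of the 6 was -0.67, beside -0.0019 over all genes. In control 3 against URI(+/D)Hep 2 to 5 the log2 fold changes of Plin2, Plin4, Cidea and Cidec were 0.69, 0.88, 0.86 and 3.57. Fitm1 did not turn in these libraries, at 62.2 in control 3 against 18.5 to 52.2. Plin5 stood at 291 in control 3, against 158 in URI(+/D)Hep 4 and 468 to 623 in URI(+/D)Hep 2, 3 and 5. Several of the 6 genes were ordered against Mki67, as the values below show.

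Plin2, the main perilipin of hepatocyte droplets, stood at 6624, 3293 and 1626 in controls 1, 2 and 3 and 1431, 2794, 3295, 1229.9 and 4149 in URI(+/D)Hep 1 to 5. The order of the 8 libraries by Plin2 was the exact reverse of their order by Mki67, from control 1 through URI(+/D)Hep 5 down to URI(+/D)Hep 4. Near ties were part of this order. Plin2 stood at 3294.9 in URI(+/D)Hep 3 and 3292.6 in control 2, and Mki67 at 467.8 in control 3 and 469.4 in URI(+/D)Hep 1. Plin5, which ties droplets to mitochondria, stood at 839, 392 and 291 in controls 1, 2 and 3 and 217, 468, 539, 158 and 623 in URI(+/D)Hep 1 to 5. Plin4, a perilipin known from adipocytes, stood at 470.1, 67.9 and 19.3 in controls 1, 2 and 3 and 13.3, 31.5, 34.8, 15.9 and 97.9 in URI(+/D)Hep 1 to 5. For all 3 perilipins control 1 was the highest control and URI(+/D)Hep 5 the highest of its group, and control 3, URI(+/D)Hep 1 and URI(+/D)Hep 4 were the lowest 3 libraries. Between the genotypes the log2 fold changes were -0.50 (95% interval -1.66 to 0.66) for Plin2, -0.38 (-1.52 to 0.76) for Plin5 and -1.50 (-3.66 to 0.66) for Plin4, with limma adjusted p of 0.649, 0.737 and 0.443. Without control 1 the log2 fold change was 0.0038 for Plin2 and -0.28 for Plin4, and without control 3 it was -1.01 and -2.55. For Plin5 such fold changes are not given, but its controls 2 and 3, at 392 and 291, lay within the URI(+/D)Hep range of 158 to 623.

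Cidec, or FSP27, which fuses droplets into larger ones, was near off in some livers. It stood at 962, 376 and 15.02 in controls 1, 2 and 3 and 7.07, 477, 556, 8.43 and 521 in URI(+/D)Hep 1 to 5. Control 3 and URI(+/D)Hep 1 and 4, the 3 libraries with the highest Mki67, had 15.02 or less, while the other 5 had 376 or more, so both genotypes held both states. The highest library exceeded the lowest 136-fold. The log2 fold change of -0.83 had a 95% interval of -5.10 to 3.43 (limma adjusted p = 0.853), and it was 0.38 without control 1, 0.081 without URI(+/D)Hep 1, 0.025 without URI(+/D)Hep 4 and -2.58 without control 3. Cidea, a CIDE protein of brown fat that appears in fatty liver, stood at 162, 63.02 and 8.58 in controls 1, 2 and 3 and 16.8, 21.3, 15.5, 7.49 and 28.7 in URI(+/D)Hep 1 to 5, high in controls 1 and 2 (log2 fold change -1.41, SE 0.80, limma adjusted p = 0.392). Its log2 fold change was -0.50 without control 1 and -2.54 without control 3. Fitm1, which helps droplets to form, ranged from 18.5 to 62.2 and did not share this order.

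**Figure D3:**
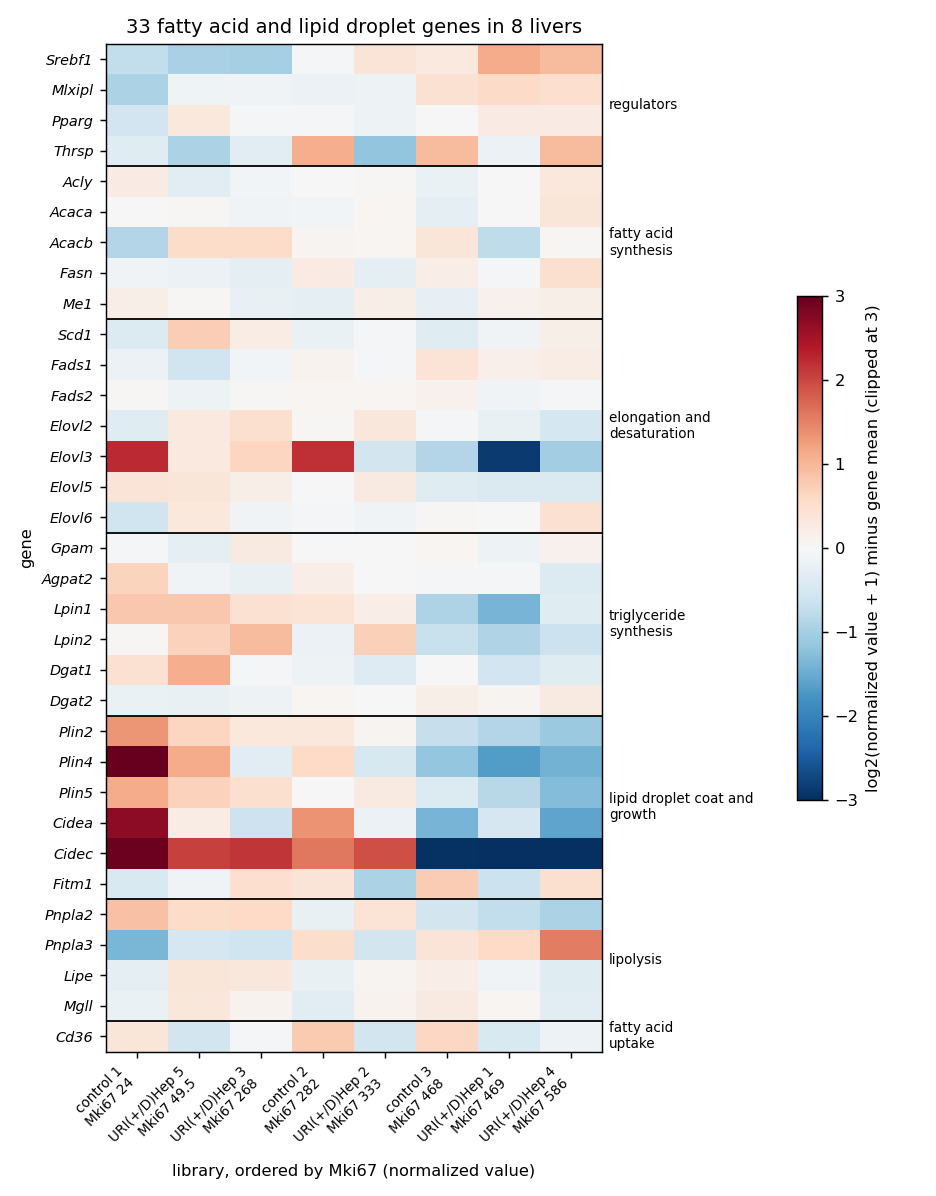
Colour gives log2(normalized value + 1) minus the mean of the gene over the 8 libraries (clipped at 3) for 33 genes (y axis, grouped by role), with libraries (x axis) ordered by Mki67 from 24 to 586. Plin2, Plin4, Plin5, Cidec, Lpin1 and Pnpla2 pass from red on the left to blue in the 3 libraries on the right, which include a control, while Acly, Acaca, Fasn and Me1 stay pale.

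Mki67 left a gap of 53.0% of its log2 range between 2 libraries, control 1 and URI(+/D)Hep 5, and the other 6, so correlations were taken within those 6 (2 controls and 4 URI(+/D)Hep) and no pooled value is given. Correlations were tested only over 6 or more libraries, which neither genotype has, so each pools the genotypes. Plin2 had a Pearson r of -0.99 and a Spearman rho of -1 with Mki67 (n = 6, exact permutation p = 0.00139 for r, the smallest 720 pairings allow). Cidec had an r of -0.94 (rho -0.89, n = 6, exact permutation p = 0.0347) and Plin5 one of -0.93 (rho -0.94, exact permutation p = 0.0125). Leaving out the 2 libraries farthest from the median Mki67, URI(+/D)Hep 3 and 4, gave r of -0.99, -0.94 and -0.82 over 4 libraries. Mki67 stood at 282 and 468 in controls 2 and 3 and at 469 and 333 in URI(+/D)Hep 1 and 2. An r over these 4 libraries is given without a test and is no check on the relation. For rho the exact permutation p was 0.00278 for Plin2, 0.0333 for Cidec and 0.0167 for Plin5. Within the 6 libraries Cidec split into 7.07 to 15.02 in control 3 and URI(+/D)Hep 1 and 4 and 376 to 556 in the others. Its r therefore mostly reflects that split.

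None of these passed over the 13703 genes tested: the Benjamini-Hochberg adjusted p was 0.409 for r and 0.355 for rho in each of the 3 genes, the former of which was also the smallest of any gene, and 0.0% of all genes were called. At an unadjusted exact permutation p under 0.05, 6 of the 33 genes were negative, namely Elovl2, Plin2, Plin4, Plin5, Cidec and Pnpla2, beside 4.62% of all genes. A further 3 were positive, Srebf1, Elovl6 and Dgat2, beside 6.99%. In all, r was negative for 20 of the 33 genes and for 5 of the 6 droplet genes, beside 46.2% of all genes. The median r was -0.28 over the 33 genes and 0.068 over all genes.

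On the positive side, Mlxipl had an r of 0.93 (rho 0.77, n = 6, exact permutation p = 0.0514), Dgat2 one of 0.88 (rho 0.89, exact permutation p = 0.0222) and Srebf1 one of 0.82 (rho 0.89, exact permutation p = 0.0333), and over 4 libraries these were 0.96, 0.65 and 0.70. Their adjusted p for r was 0.418, 0.409 and 0.409, and the exact permutation p of rho was 0.103, 0.0333 and 0.0333. For Fasn the r of 0.61 (rho 0.60, exact permutation p = 0.169 for r and 0.242 for rho) went to -0.049 over 4 libraries, which span a narrower range of Mki67. The 2 libraries outside the 6 extended the pattern for the perilipins, with Plin2 at 6624 and 4149 in control 1 and URI(+/D)Hep 5 against 1229.9 to 3295 in the other 6. They did so for Dgat2, at 507 and 495 against 524 to 703. They split for Elovl6, at 481 and 905. For Elovl2 they lay within the range of the other 6, at 1644 and 2594 against 1482 to 2967. The same held for Srebf1, at 68.4 and 58.4 against 57.03 to 251. For Cidec, Pnpla2 and Mlxipl control 1 extended the pattern, at 962, 384 and 564. URI(+/D)Hep 5 lay within the range of the other 6 for these genes, at 521, 309 and 982.

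The library with the lowest Mki67 in each genotype was also the highest of its genotype for 7 of the 33 genes, beside 13.8% of all genes. These were Elovl5, Lpin1, Dgat1, Plin2, Plin4, Plin5 and Cidea. It was the lowest of its genotype for 4 genes, Fads1, Fads2, Gpam and Dgat2, beside 16.7%.

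**Figure D4:**
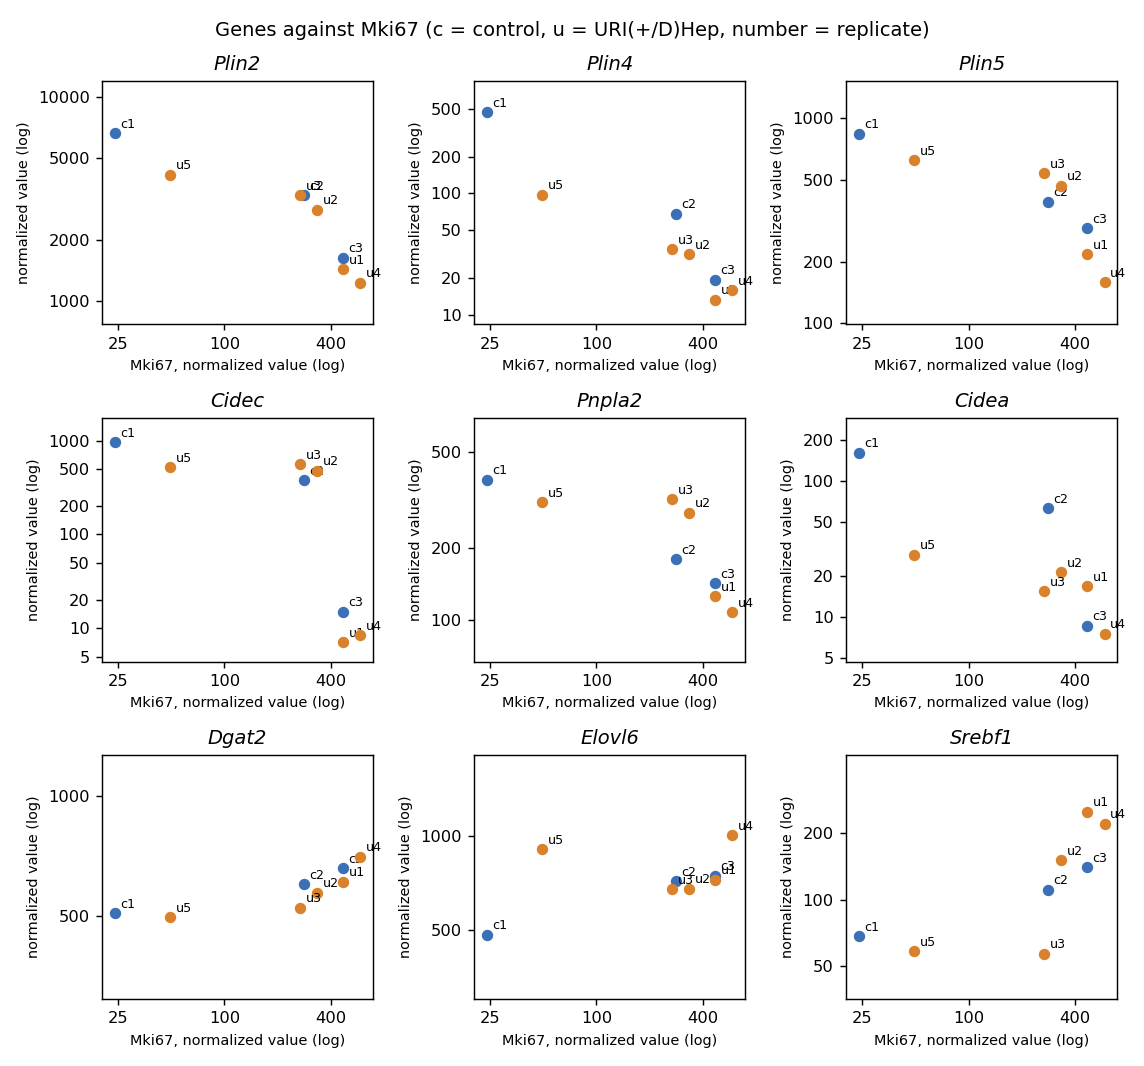
Normalized value of 9 genes (y axes, log scale) against that of Mki67 (x axes, log scale) in each of the 8 libraries, controls in blue and URI(+/D)Hep in orange. Plin2, Plin4, Plin5, Cidec and Pnpla2 are lowest in control 3 and URI(+/D)Hep 1 and 4 at the right of each panel, and Cidec drops to 15.02 or less there. Dgat2 and Srebf1 lie in the upper part there, and Elovl6 is split between c1 and u5 at the left.

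The upstream regions of Plin2 (chr4:86670060-86670309), Plin4 (chr17:56109783-56110032), Plin5 (chr17:56117549-56117798) and Cidec (chr6:113434765-113435014), all on the minus strand of GRCm38.p6 in RefSeq, are shown because these genes varied together. Each is 250 bases before a start, and capitals mark CCAAT boxes on either strand. For a gene with several starts, the start with most matches is shown, or the first by coordinate.
Plin2: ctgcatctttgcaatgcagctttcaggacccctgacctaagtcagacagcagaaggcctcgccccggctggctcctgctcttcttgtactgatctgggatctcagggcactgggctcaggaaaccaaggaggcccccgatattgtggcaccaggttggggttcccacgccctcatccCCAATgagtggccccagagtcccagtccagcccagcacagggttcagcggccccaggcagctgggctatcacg
Plin4: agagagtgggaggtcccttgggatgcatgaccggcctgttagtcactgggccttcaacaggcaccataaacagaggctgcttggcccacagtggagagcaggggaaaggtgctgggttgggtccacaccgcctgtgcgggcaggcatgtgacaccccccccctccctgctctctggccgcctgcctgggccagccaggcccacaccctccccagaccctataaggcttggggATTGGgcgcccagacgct
Plin5: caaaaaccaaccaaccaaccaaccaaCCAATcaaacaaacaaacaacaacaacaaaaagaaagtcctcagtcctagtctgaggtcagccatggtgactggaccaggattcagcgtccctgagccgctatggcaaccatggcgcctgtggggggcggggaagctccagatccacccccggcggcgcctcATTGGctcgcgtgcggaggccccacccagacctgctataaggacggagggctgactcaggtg
Cidec: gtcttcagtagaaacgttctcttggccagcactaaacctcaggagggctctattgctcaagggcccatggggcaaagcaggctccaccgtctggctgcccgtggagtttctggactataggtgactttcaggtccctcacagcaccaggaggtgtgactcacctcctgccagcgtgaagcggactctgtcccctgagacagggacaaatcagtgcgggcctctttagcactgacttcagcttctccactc

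Motifs were searched on both strands in 300 bases, 250 before to 50 after each of 42 RefSeq starts found for 28 of the 34 genes. CCAAT was in 19 of the 42 windows (45.2%), beside 37.4% of 32851 windows over all genes. The E-box CACGTG, which carbohydrate response factors and USF can bind, was in 6 (14.3%, beside 7.15%), those of Mlxipl, Elovl5, Lpin2, Plin2, Lipe and Mgll. That of Plin2 lay across the start, at bases -4 to 2, and is therefore not in capitals above. The sterol response letters TCACNCCAC were in 1 window, of Mlxipl (2.38%, beside 1.24%), and TCACCCCAC in 0 (beside 0.551%). The PPAR-type repeat DR1 and the LXR-type repeat DR4, each of the letters AGGTCA, and the paired E-box of the carbohydrate response element were in 0 of the 42, beside 0.0396%, 0.0152% and 0.0% of all windows. A match describes letters only, and overlapping matches were each counted.

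Lipases were not called. Pnpla2, adipose triglyceride lipase, stood at 384, 179 and 143 in controls 1, 2 and 3 and 126, 279.6, 318, 108 and 309 in URI(+/D)Hep 1 to 5, lowest in control 3 and URI(+/D)Hep 1 and 4 as for the perilipins (log2 fold change -0.055, 95% interval -1.08 to 0.97). Pnpla3, a droplet protein induced by SREBP1, stood at 47.97, 181 and 165 in controls 1, 2 and 3 and 193, 85.2, 83.1, 365 and 89.01 in URI(+/D)Hep 1 to 5. It ran opposite to Pnpla2 in control 1 and URI(+/D)Hep 4. Its r with Mki67 was 0.77 (rho 0.83, n = 6, exact permutation p = 0.0875 for r and 0.0583 for rho). Over 4 libraries, which span a narrower range of Mki67, its r was 0.31. Its log2 fold change was 0.25 (limma adjusted p = 0.858) and -0.42 in control 3 against URI(+/D)Hep 2 to 5, and it was -0.36 without control 1 and -0.11 without URI(+/D)Hep 4. Lipe, hormone-sensitive lipase, and Mgll, monoglyceride lipase, varied 1.66-fold and 1.6-fold between libraries, with log2 fold changes of 0.16 and 0.15.

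Plin4, Cidec, Cidea, Lipe and Pparg are also adipocyte genes, so adipocyte markers were read beside them. Of 8 such markers 5 were in the table and 2 were measured, and the sum ran from 131 to 1176 in controls and from 227 to 690.3 in URI(+/D)Hep. Nearly all of it was Fabp4, at 995, 367 and 119 in controls 1, 2 and 3 and 243, 352, 287, 213 and 649 in URI(+/D)Hep 1 to 5, a fatty acid binding protein that endothelial cells and macrophages also express. Plin1, the perilipin that defines adipocytes, stood at 0 to 2.78, that is, at or below the value of 3 reads in every library. Plin1 was thus near 0, and the list shares Cidea with the genes described. The adipocyte sum was lowest in control 3 and URI(+/D)Hep 4 and 1, at 131, 227 and 268, the libraries lowest in Plin2, and highest in control 1 and URI(+/D)Hep 5, as Plin2 was. Stellate cells, which store retinoid droplets, had a summed marker value of 1876 to 2084 in controls and 1917 to 2138 in URI(+/D)Hep, with 8 of 8 measured. Neutrophil markers, 5 of 8 measured, summed to 492 to 979.8 and 266 to 829.3, lowest in URI(+/D)Hep 1 and 4 and highest in controls 1 and 2. Of 6 exocrine pancreas markers 3 were in the table and 1 was measured, Cela1, and URI(+/D)Hep 5 had the highest sum, 450.0. Pnlip stood at 64.3 in URI(+/D)Hep 5 and at most at 3.70 in any other library, and Prss2 at 20.8 against at most 2.40. The part of these cells in the lipid values was not tested.

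Other genes of the same pathways gave 0 calls by limma in either direction among 84 measured of 90 listed, with 33 positive and 51 negative log2 fold changes and ranges that did not overlap for 4 higher and 6 lower genes (beside 6.13% and 7.3% of all genes). In control of SREBP and carbohydrate response, 17 of 17 were measured, with a median log2 fold change of -0.16. Slc2a2, the hepatic glucose transporter GLUT2, stood at 301, 547 and 786 in controls 1, 2 and 3 and 1161, 1229.6, 895, 966 and 1048 in URI(+/D)Hep 1 to 5, every URI(+/D)Hep library being above every control (log2 fold change 1.06, SE 0.27, limma adjusted p = 0.122). Nfyc, a subunit of NF-Y, likewise did not overlap, at 157 ± 12.4 against 229 ± 19.3 (log2 fold change 0.54, SE 0.11, limma adjusted p = 0.115). In acetyl-CoA and NADPH supply, 12 of 12 were measured with a median of -0.21, and Tkt, transketolase, stood at 789 ± 38.03 against 602 ± 49.7 without overlap (log2 fold change -0.39, SE 0.10, limma adjusted p = 0.122). H6pd, a dehydrogenase that makes NADPH in the endoplasmic reticulum, stood at 1272 ± 386 against 822 ± 134 with overlap.

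Other elongation and desaturation enzymes, 11 of 14 measured, had a median of -0.14. Elovl1, an elongase of saturated very long chains, stood at 325, 256 and 271 in controls 1, 2 and 3 and 171, 189, 207, 149 and 218 in URI(+/D)Hep 1 to 5, without overlap (log2 fold change -0.61, SE 0.15, limma adjusted p = 0.12). Fads3, a desaturase, stood at 49.8 ± 15.3 against 27.6 ± 4.83 with overlap. Other glycerolipid enzymes, 12 of 13 measured, had a median of 0.02, and its 2 genes of smallest p were Lclat1, an acyltransferase, at 189 ± 19.5 against 249 ± 30.3 without overlap, and Lpin3, the third lipin, at 33.4 ± 15.4 against 23.5 ± 7.35 with overlap.

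Other lipid droplet proteins, 15 of 17 measured, had a median of -0.05. Hsd17b13, a droplet-bound dehydrogenase of hepatocytes, stood at 1982, 2285 and 2242 in controls 1, 2 and 3 and 1657, 1248, 1449.8, 1799 and 1214 in URI(+/D)Hep 1 to 5. Every URI(+/D)Hep library lay below every control (log2 fold change -0.57, SE 0.15, limma adjusted p = 0.127). For Ldah, a droplet-associated hydrolase, every URI(+/D)Hep library lay above every control, at 194 ± 22.1 against 279.9 ± 14.5 (log2 fold change 0.53, SE 0.11, limma adjusted p = 0.115). Hilpda, an inhibitor of Pnpla2 that was singled out after its values were seen, stood at 1803, 673 and 219 in controls 1, 2 and 3 and 127, 489, 656, 138 and 642 in URI(+/D)Hep 1 to 5, with control 3 and URI(+/D)Hep 1 and 4 lowest, as for the perilipins. In fatty acid uptake, activation and binding, 17 of 17 were measured with a median of -0.02. Acsl4, which activates arachidonate, stood at 1076 ± 259 against 733 ± 43.3 without overlap (log2 fold change -0.53, SE 0.14, limma adjusted p = 0.132), and Slc27a2, a fatty acid transport protein, stood at 805 ± 178 against 1198 ± 193 with overlap (log2 fold change 0.58, SE 0.17, limma adjusted p = 0.151).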

How the data were processed

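The deposited table holds normalized signal made by the authors: read counts per gene symbol divided by a size factor for each of 8 libraries. Build GRCm39 and the tools bcl2fastq, featureCounts and DESeq2 are named in the submitters' processing notes. Not given in the sources used here are the aligner, the annotation and the use of the molecular identifiers of the 3′ end libraries. Dividing by the smallest value above 0 gave whole reads, within 1e-06, for 100% of values; that step is close to 1 in URI(+/D)Hep 5, so edgeR was also run on the other 7 libraries. A count of 3 reads corresponds to 2.65 to 3.60.

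limma 3.58.1 (R 4.3.3, mean-variance trend) was fitted to log2(value + 1), with Benjamini-Hochberg adjustment over the 13704 genes that reached 10 in 3 or more libraries. Such fold changes understate those of low genes. edgeR 4.0.16 and DESeq2 1.42.0 on recovered reads were alternatives, and the fits were tested on simulated data. The replicate numbers shared by the groups were not used to pair them.

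The genes and lists were chosen with earlier results of these data known. Values per library are given for 11 genes picked by name and 10 more by smallest p, for the 3 most positive and 3 most negative r with Mki67, and, as values or means, for the 2 genes of smallest p per other list. Lpin1, Pnpla2, Hilpda and the comparison of the libraries lowest in Mki67 were added after their values were seen.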

Additional observations from a re-analysis of the deposited data

Results flagged for a closer look

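In the group of 5 URI(+/D)Hep livers, 4 of the 33 genes had a library far from the others, by a gap of more than 0.71 of the group's range, where chance gives about 1 in 20 and 5.68% of all 13704 genes had one. URI(+/D)Hep 4 stood apart for Acaca, at 1497 against 1079 to 1194, and for Fasn, at 999.5 against 587 to 689. URI(+/D)Hep 5 stood apart for Dgat1, at 598 against 187 to 266, and for Plin4, at 97.9 against 13.3 to 34.8. These libraries had the highest and the lowest Mki67 of their group, 586 and 49.5.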

How the results depend on the processing

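Of the 33 genes, 0 were called higher in any of 25 alternatives, and 1 was called lower, Cd36, with Mki67 as a covariate and by DESeq2 (1 each), against 0 otherwise. The median log2 fold change of the 33 genes stayed between -0.095 and 0.082. Ranges that did not overlap numbered 2 to 6 without each library in turn, 6 without control 3 (beside 25% of all genes), and 9 in control 3 against URI(+/D)Hep 2 to 5, the libraries where Xist and Y-linked reads occur together (beside 54.5%). Over all genes, the calls without each library ran from 0 to 11 higher and from 0 to 23 lower, both extremes being without control 3. Higher calls numbered 1 with a mean of at least 50, with array weights and without the 2 libraries lowest in Mki67, 64 with Mki67 as a covariate and 236 by DESeq2. Lower calls numbered 0 with quantile normalization, without the trend, without the 2 libraries lowest in Mki67, in control 3 against URI(+/D)Hep 2 to 5, with Y-linked share as covariate and by edgeR on 7 libraries, a choice made after seeing the data. They numbered 105 with Mki67 as a covariate and 376 by DESeq2. The causes were not tested.

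With the replicate number as a block 0 genes were called lower and the log2 fold change of Pnpla3 was -0.026. Same-numbered libraries did not deviate together (correlations -0.40, -0.043 and -0.27), no control correlated best with its own number, and URI(+/D)Hep 4 and 5 share no number with a control. The block is therefore no pairing.

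Among the genes picked by name or by smallest p, log2 fold changes changed sign as follows, with none called. In control 3 against URI(+/D)Hep 2 to 5 they were -0.45 for Srebf1, 0.19 for Acly, 0.69 for Plin2, 3.57 for Cidec, -0.42 for Pnpla3, 0.71 for Elovl3, 0.86 for Cidea, 0.88 for Plin4 and -0.42 for Mlxipl. With Y-linked share as covariate they were -0.31 for Srebf1, 0.038 for Acly, 0.11 for Plin2, 1.63 for Cidec, -0.19 for Pnpla3 and -0.023 for Mlxipl. With Mki67 as a covariate they were -0.044 for Srebf1, 0.20 for Cidec and -0.11 for Pnpla3. Array weights gave 0.053 for Acly and -0.26 for Pnpla3. Without the 2 libraries lowest in Mki67 they were 0.17 for Acly and -0.21 for Pnpla3. Quantile normalization gave 0.0013 for Dgat2, and edgeR on 7 libraries gave 0.044 for Acly and 0.027 for Dgat2. Without each library in turn they ran from -0.024 to 0.54 for Srebf1, -0.13 to 0.097 for Acly, -0.12 to 0.063 for Dgat2, -1.01 to 0.0038 for Plin2, -2.58 to 0.38 for Cidec and -0.36 to 0.59 for Pnpla3. The other 11 genes picked by name or by smallest p, among them Cd36, Scd1, Agpat2, Thrsp and Fasn, kept their direction under each alternative run. Plin5, given for its r with Mki67, is not covered by this list. Without control 1 its controls, at 392 and 291, lay within the URI(+/D)Hep range of 158 to 623, so its direction may also depend on that library.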
